A study of Mus musculus with 3 samples.

Results

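Genes that build nucleotides and that supply them with one-carbon units were described in F9 cells, a mouse embryonal carcinoma line kept undifferentiated. They were chosen by name from 54 genes of nucleotide synthesis and of folate, serine, glycine and methionine metabolism, and 49 of the 54 had at least 1 probe set annotated with that gene alone, out of 18193 named genes in all. Total RNA was hybridised to 3 Affymetrix Mouse Genome 430 2.0 arrays, 1 per labelled replicate, all untreated and all in 1 group. The cells grew on 0.2% gelatin in medium with 10% serum and were harvested near 80% confluence. No differentiated, treated or other reference sample was measured, so the comparisons are with the background of the same arrays and between the arrays.

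Cells make glycine and one-carbon units along several routes. Serine is built from a glycolytic intermediate and split into glycine and a folate-bound carbon, while glycine itself can be cleaved in mitochondria to give another. Mouse embryonic stem cells are known for a further route, the breakdown of threonine by threonine dehydrogenase (Tdh) and its partner Gcat, which yields glycine. The folate-bound carbon is used to make purines, thymidylate and methionine, and so joins the branches described here.

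The threonine route could not be set against the serine route. Neither of its genes, Tdh and Gcat, is named alone by a probe set in the annotation used here, and Amt, Mat2a and Impdh2 were likewise not analysed here. Another 7 probe sets name 1 of 4 listed genes (Gcat, Phgdh, Tyms or Prps1) together with a further gene and were left out, which still left probe sets for the last 3. The 49 measured genes had 105 probe sets between them.

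Nearly all of these genes were above background. Of the 49 genes, 47 (95.9%) passed, against 51.1% of the 18081 named genes outside the background families. Background here is the 95th percentile of 126 probe sets for receptors of smell, taste and pheromones and for proteins of hair (Krtap), genes with little known use in such cells, which lay at a signal of 44.6, 46.1 and 43.2 on replicates 1, 2 and 3. A probe set passed where its log2 signal lay over that threshold by limma's one-sided test with a Benjamini-Hochberg adjusted p under 0.05 over all probe sets, and a gene was read from its probe set of highest mean signal. The same 47 genes also exceeded the threshold on all 3 arrays, as did 53.8% of named genes. The measured genes lay a median of 5.35 log2 units over the threshold, against 0.72 for all named genes, a description over different probe sets that includes genes not above background. Among the 47, 39 lay at least 3 log2 units over it, 5 lay between 1 and 3, and 3 lay under 1.

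The 2 genes that did not pass, Mat1a and Adssl1, each encode 1 form of an enzyme that has another form elsewhere in the genome. Genes with several probe sets have more chances to pass, so the 20 genes with a single one were also counted. Of these 18 passed, a share well above the 36.1% of all named genes with 1 probe set. Because probes bind with different strength, levels are set against background and between arrays, not between genes. Errors after ± are SDs over the 3 arrays (n = 3) unless given as SE. In RNA from a whole culture, fewer cells of a type and less RNA per cell cannot be told apart.

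The label was checked against marker genes. All 6 embryonal carcinoma markers (Pou5f1, Sox2, Nanog, Zfp42, Utf1 and Sall4) were above background by limma's test. Of 5 endoderm markers 0 passed and 2 (Gata6 and Sox17) had an unadjusted p under 0.05, with mean signals between 16.8 and 69.7 for the list. These 2 exceeded the threshold on all 3 arrays, Gata6 at 59.3, 60.2 and 53.0 and Sox17 at 55.2, 63.3 and 90.7 (limma adjusted p = 0.0511 and 0.074). Of 4 fibroblast markers 0 passed and 0 had such a p, with mean signals between 14.9 and 39.3. The median signal over all probe sets was 37.8, 37.8 and 36.04 on replicates 1, 2 and 3. The labels do not say whether separate cultures gave the 3 RNA samples. The p-values therefore rest on a spread between arrays that may be technical alone.

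Serine synthesis was above background at each of its 3 steps. Phgdh encodes the dehydrogenase of the first step. Its signal was 6211, 6212 and 6203 on replicates 1, 2 and 3 (mean 6208 ± 4.90), so the arrays were almost level, at 7.12 ± 0.11 log2 units over the threshold (SE; limma adjusted p = 0.000109). Psat1, the aminotransferase of the second step, read 8164, 8149 and 7667 (mean 7993 ± 283). Psph, the phosphatase that releases serine, read 4234, 4147 and 4291 (mean 4224 ± 72.9). In these genes the highest array exceeded the lowest by 1.00-fold, 1.06-fold and 1.03-fold, far less than their distance from background.

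Across the 47 genes that passed, limma's adjusted p ran from 0.000109 to 0.0389. All 4 Phgdh probe sets and both of Psat1 passed. The other Phgdh probe sets had mean signals of 5925 ± 35.1, 4649 ± 741 and 1911 ± 248 (SD, n = 3). All 4 are of the _x_at kind, whose probes may also bind other transcripts. The last 2 of them were lowest on replicate 3, by up to 1.36-fold from the highest array, a spread that the most intense probe set did not share.

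The upstream sequences of Phgdh and Psat1 are shown because both genes of the pathway stood far over background and both sequences hold the letters CCAAT, the motif known as the CCAAT box. Each is the 250 bases before the annotated start in RefSeq, build GRCm38.p6, minus strand, written 5′ to 3′ with CCAAT in capitals. Psat1 has 2 such windows in the table. The one shown was chosen by its number of CCAAT matches, so the other holds as many or fewer.
Phgdh chr3:98339970-98340219: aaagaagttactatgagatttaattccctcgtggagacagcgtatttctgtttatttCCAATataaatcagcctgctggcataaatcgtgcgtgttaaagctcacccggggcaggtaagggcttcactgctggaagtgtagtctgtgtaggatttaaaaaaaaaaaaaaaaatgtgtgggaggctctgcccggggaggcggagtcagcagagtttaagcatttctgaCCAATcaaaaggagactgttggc
Psat1 chr19:15925060-15925309: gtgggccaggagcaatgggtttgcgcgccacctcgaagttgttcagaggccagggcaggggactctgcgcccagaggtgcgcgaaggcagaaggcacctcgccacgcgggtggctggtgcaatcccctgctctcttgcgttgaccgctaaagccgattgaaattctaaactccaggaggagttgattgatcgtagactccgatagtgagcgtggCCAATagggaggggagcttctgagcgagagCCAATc
Each window shown holds 2 copies, and the count for the other Psat1 window is not given. Psph also has 2 in its window, counted on both strands, but that window overlaps the neighbouring gene Cct6a and is not shown. CCAAT, on either strand, was found upstream of 22 of the 44 measured genes with a RefSeq window (50.0%), against 37.5% of 27025 genes in that table. No measure here bears on whether any factor binds them.

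The enzymes that take the carbon from serine were both above background. Shmt1, the cytosolic serine hydroxymethyltransferase, read 1123, 1108 and 1094 (mean 1108 ± 14.3), and each of its 4 probe sets passed, at mean signals from 415 to 1108. Shmt2, the mitochondrial form, read 5925, 6393 and 5985 (mean 6101 ± 255). Its 4 probe sets also passed, but fell into an upper pair at 6101 ± 255 and 4246 ± 312 and a lower pair at 383 ± 161 and 315 ± 34.2 (SD, n = 3). For 1 probe set of the lower pair the highest array exceeded the lowest by 2.53-fold.

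The folate enzymes that carry the unit onward all passed, in cytosol and mitochondria alike. Mthfd1, the cytosolic enzyme with 3 activities, read 3537, 3860 and 3529 (mean 3642 ± 189). Mthfd1l, the mitochondrial formyltetrahydrofolate synthetase, read 2309, 2282 and 2306 (mean 2299 ± 14.8), with the highest array 1.01-fold over the lowest. Mthfd2, a mitochondrial dehydrogenase known from embryonic and dividing cells, read 1823, 1895 and 1758 (mean 1825 ± 68.5), and both of its probe sets passed. These genes lay 6.35, 5.69 and 5.35 log2 units over the threshold.

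Mthfd2l, the related mitochondrial enzyme, was nearer background. It read 272.5, 212 and 262 (mean 249 ± 32.3), at 2.47 ± 0.15 log2 units over the threshold (SE; limma adjusted p = 0.000629), and 3 of its 4 probe sets passed. The remaining one read 48.4, 30.8 and 35.9, above the threshold on replicate 1 alone. One Mthfd1 probe set of the _x_at kind was uneven as well, at 600.4, 1299 and 1595, a 2.66-fold range that its other probe sets did not show.

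Of the glycine cleavage system, the mitochondrial complex that breaks glycine down to carbon dioxide, ammonia and a folate-bound carbon, 3 of 3 measured genes passed. Gldc, its glycine decarboxylase, read 585, 656 and 684 on replicates 1, 2 and 3 (mean 642 ± 51.4). Gcsh, the carrier protein of the complex, read 4009, 4115 and 4338 (mean 4154 ± 168). Both were lowest on replicate 1 and highest on replicate 3, within 1.17-fold. Dld, the dihydrolipoamide dehydrogenase that also serves pyruvate dehydrogenase, read 1125, 1108 and 1342 (mean 1192 ± 131). A second Dld probe set read 31.6, 34.3 and 19.3, under the threshold on every array, so the 2 probe sets of this gene gave different calls. Together the serine, glycine and folate genes gave 12 of 12 above background, beside 51.1% of all named genes. The same 51.1% is the share to set beside the counts of each group below.

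**Figure D1:**
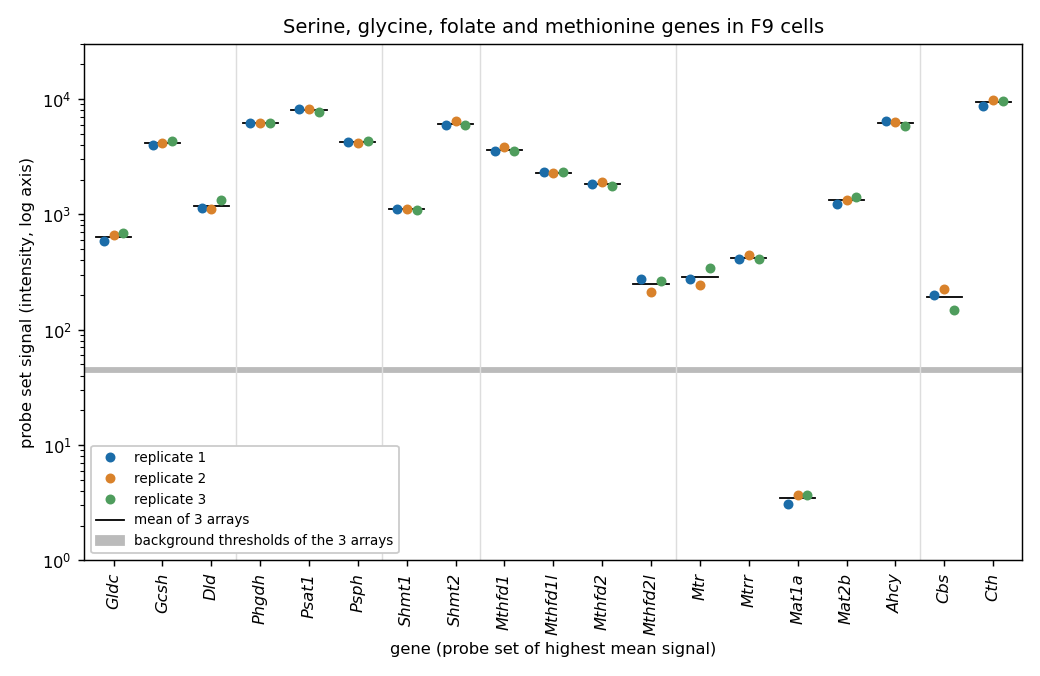
Signal of each gene's probe set of highest mean signal on the 3 arrays (log axis), for the serine, glycine, folate, methionine and transsulfuration genes, with the mean as a bar and the 3 background thresholds as a grey band. All but Mat1a, with a mean of 3.49, lie over the band, and the 3 arrays of a gene lie close together.

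The methionine cycle, which turns homocysteine into methionine and the methyl donor S-adenosylmethionine, passed in 4 of 5 genes. Mtr, methionine synthase, read 272.5, 245 and 343 (mean 287 ± 50.8), with replicate 3 highest by 1.403-fold over replicate 2. Its reactivating reductase Mtrr had a mean signal of 421 ± 21.5 (SD, n = 3). Ahcy, the hydrolase that clears S-adenosylhomocysteine, read 6503, 6349 and 5778 (mean 6210.3 ± 382), lowest on replicate 3.

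The exception was Mat1a, the S-adenosylmethionine synthetase gene known from liver. It read 3.1, 3.7 and 3.7 (mean 3.49 ± 0.355), at -3.68 log2 units, under the threshold on every array and from its only probe set. Mat2b, which encodes the regulatory subunit of the synthetase found in most other tissues, had a mean of 1326 ± 97.6 (SD, n = 3). The catalytic partner of that subunit, Mat2a, is among the genes not analysed here.

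Both transsulfuration genes, which lead from homocysteine to cysteine, passed. Cbs, cystathionine beta-synthase, read 201.5, 226.5 and 147 (mean 192 ± 40.5), a 1.54-fold range with replicate 3 lowest. A second Cbs probe set, at a mean of 151, passed too. Cth, cystathionine gamma-lyase, read 8747, 9758 and 9541 (mean 9349 ± 532), within 1.12-fold.

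All 9 genes of deoxynucleotide synthesis passed, though 3 of them by less than 1 log2 unit. Rrm1, the large subunit of ribonucleotide reductase, read 2105, 2086 and 2069 on replicates 1, 2 and 3 (mean 2086 ± 18.0). A second probe set agreed at 1941 ± 108 (SD, n = 3), while the remaining one lay under the threshold on every array at 10.1, 2.9 and 12.5. Rrm2, the small subunit made in dividing cells, had a mean of 6113 ± 366, and its 3 probe sets all passed. Dck, which salvages deoxynucleosides, had a mean of 1085 ± 75.6 and Dut, which destroys dUTP, of 3299.9 ± 295. Their other probe sets passed at lower means, 355 and 244 for Dck and 542 for Dut. Dtymk, the thymidylate kinase, read 2666, 2718 and 3193 (mean 2859 ± 290.1), and Tk1, the cytosolic thymidine kinase, had a mean of 271 ± 25.2.

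Tyms, Tk2 and Rrm2b were the weak calls. Tyms encodes thymidylate synthase, which uses the folate-bound carbon directly, and read 81.4, 74.2 and 77.2 (mean 77.6 ± 3.63), at 0.80 ± 0.11 log2 units over the threshold (SE; limma adjusted p = 0.00689). Its other 3 probe sets did not pass, the closest reading 63.2, 46.1 and 56.4 and the lowest 1.7, 2.7 and 32.7. Another probe set, which names Tyms together with Tyms-ps, was left out. The weak call for Tyms rests on the probe sets that name it alone. Tk2, the mitochondrial thymidine kinase, with 1 probe set, had a mean of 79.6 ± 7.76 (SD, n = 3; limma adjusted p = 0.0073).

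Rrm2b, the reductase subunit induced by p53, read 55.7, 93.4 and 85.3 (mean 78.1 ± 19.9), the widest range at 1.68-fold among the 47 nucleotide, folate, serine and methionine genes above background (limma adjusted p = 0.0389), and its other 3 probe sets did not pass. With the threshold at the 99th percentile, which 46.1% of named genes passed, limma's adjusted p became 0.177 for Tyms, 0.132 for Tk2 and 0.369 for Rrm2b. Without replicate 1 it was 0.053 for Tyms and 0.0502 for Tk2, and for Rrm2b it was 0.156 without replicate 2 and 0.161 without replicate 3. Over 11 alternatives with a limma test, the lowest probe set left out, the limma adjusted p ran from 0.000646 to 0.177, 0.000796 to 0.132 and 0.0102 to 0.369 for Tyms, Tk2 and Rrm2b. Each lower end came from the filter on low values. That filter drops probe sets under the threshold on every array before the test, so it is no separate check of these calls.

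Pyrimidine synthesis passed in 5 of 5 genes. Cad, whose protein carries out the opening 3 steps, read 910.2, 928 and 782 (mean 873 ± 79.3), and all 3 of its probe sets passed. Dhodh, the mitochondrial dihydroorotate dehydrogenase, had a mean of 629 ± 56.0 (SD, n = 3). Umps, which completes uridine monophosphate, read 1501, 1458 and 1283 (mean 1414 ± 116). Ctps, one of the CTP synthetases, had a mean of 1783 ± 41.0, and the other, Ctps2, read 506, 469.9 and 387 (mean 455 ± 61.0). In these probe sets replicate 3 was the lowest array, by 1.04-fold to 1.31-fold from the highest, as it was in 40.5% of all named genes above background. Other probe sets of the same genes that passed were mixed. A second one for Cad was also lowest on replicate 3, at 745, 791 and 614. Another for Cad and 2 for Umps were lowest on replicate 1. A second one for Dhodh was highest on replicate 3, at 426.6, 410.0 and 559.

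Umps and Ctps2 each had probe sets that passed and others that did not. For Umps 3 of 4 passed, and the other read 10.5, 31.8 and 5.1. For Ctps2 only 1 of 3 passed. The next read 79.2, 71.3 and 45.7, over the threshold on every array but not by limma's test (adjusted p = 0.102), and the last read 45.8, 44.1 and 34.9.

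All 6 genes of the purine pathway up to inosine monophosphate (IMP) passed. Ppat, the amidotransferase of the committed step, read 1922, 1812 and 1804 (mean 1846 ± 65.8). Gart, an enzyme with 3 activities of which 1 uses formyl-folate, had a mean of 2435 ± 177 (SD, n = 3). Pfas, which acts right after the formyl-folate step, had a mean of 808 ± 73.6. Paics had a mean of 6721 ± 543 and Adsl, which acts in both the IMP and the AMP branch, of 1016 ± 67.5. Atic, which adds the second formyl group and closes the ring, read 3249, 3455 and 3380 (mean 3361 ± 104).

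One of the 3 Ppat probe sets lay under the threshold on every array, reading between 1.6 and 14.0. All probe sets of Gart, Paics and Atic passed. Gart has 4 of them, and the one of lowest signal passed as well, at 1.80 log2 units over the threshold.

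From IMP the pathway splits to AMP and GMP, and here 3 of 4 measured genes passed. Impdh1, an IMP dehydrogenase, read 305, 331 and 256 (mean 297 ± 38.4), and Gmps, the GMP synthetase, had a mean of 2934 ± 53.8 (SD, n = 3). Adss, the adenylosuccinate synthetase of most tissues, had a mean of 3967 ± 309.5, at 6.47 ± 0.12 log2 units (SE; limma adjusted p = 0.000109). Adssl1, the muscle form, read 7.0, 5.8 and 6.8 (mean 6.52 ± 0.618), at -2.78 log2 units, under the threshold on every array. Each of the pair has 1 probe set.

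The 250 bases upstream of both genes are shown because the forms stood on opposite sides of the call. They are from RefSeq, build GRCm38.p6, minus strand for Adss and plus strand for Adssl1, written 5′ to 3′, with GGGCGG or its reverse complement, the GC box, in capitals.
Adss chr1:177796510-177796759: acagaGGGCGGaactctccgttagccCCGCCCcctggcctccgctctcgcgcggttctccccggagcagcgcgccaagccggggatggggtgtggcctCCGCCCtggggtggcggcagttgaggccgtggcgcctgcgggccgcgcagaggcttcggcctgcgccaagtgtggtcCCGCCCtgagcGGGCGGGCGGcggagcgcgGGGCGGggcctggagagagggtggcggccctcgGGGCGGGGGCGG
Adssl1 chr12:112619797-112620046: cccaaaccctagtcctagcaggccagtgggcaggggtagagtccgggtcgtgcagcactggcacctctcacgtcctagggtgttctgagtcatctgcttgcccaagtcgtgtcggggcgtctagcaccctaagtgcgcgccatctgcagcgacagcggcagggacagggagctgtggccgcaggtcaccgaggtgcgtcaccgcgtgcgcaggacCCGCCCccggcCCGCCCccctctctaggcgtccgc
Adss has 9 copies, counting an overlapping pair as 2, and 32 CG dinucleotides. Adssl1 has 2 copies and 21 CG dinucleotides. The median was 15.5 CG dinucleotides over 52 windows of 44 measured genes and 6.0 over all 32851 windows, so both forms, the one above background and the one not, exceed both medians. GGGCGG on either strand was found for 34 of the 44 genes (77.3%), against 35.4% of all genes.

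4 further motifs were searched on both strands of the same windows. The E-box CACGTG was found for 6 of 44 genes (13.6%, against 6.86% of all genes), namely Atic, Cbs, Dtymk, Nme1, Paics and Tyms. TATAAA was found for 3 (6.82%, against 14.3%), TGATGNAA for 1 (2.27%, against 3.91%) and TTTCCCGC for 1 (2.27%, against 1.03%). These are matches of letters and were not tested. Mat1a, Cth, Rrm2b, Dhodh and Pfas were not matched to a window.

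Purine salvage, phosphoribosyl pyrophosphate supply and nucleoside diphosphate kinases passed in 6 of 6 genes. Hprt, which salvages hypoxanthine and guanine, read 4310.1, 4253 and 4191 (mean 4251 ± 59.7), and Aprt, which salvages adenine, read 3529.7, 3597 and 3282 (mean 3469 ± 166). Prps1 and Prps2 make the activated ribose that every nucleotide needs. Prps1 read 2887, 2816 and 3028 (mean 2910.4 ± 108), and Prps2 read 496, 519 and 571 (mean 529 ± 38.6). The other Prps2 probe sets passed at means of 302 and 169. Of the kinases that equalise di- and triphosphates, Nme1 read 4608, 5659 and 4361.5 (mean 4876 ± 689), highest on replicate 2 by 1.30-fold over replicate 3. Nme2 read 10526, 10545 and 10786 (mean 10619 ± 145), within 1.02-fold. Nme1 and Nme2 are close relatives, and whether their probes are shared was not tested.

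**Figure D2:**
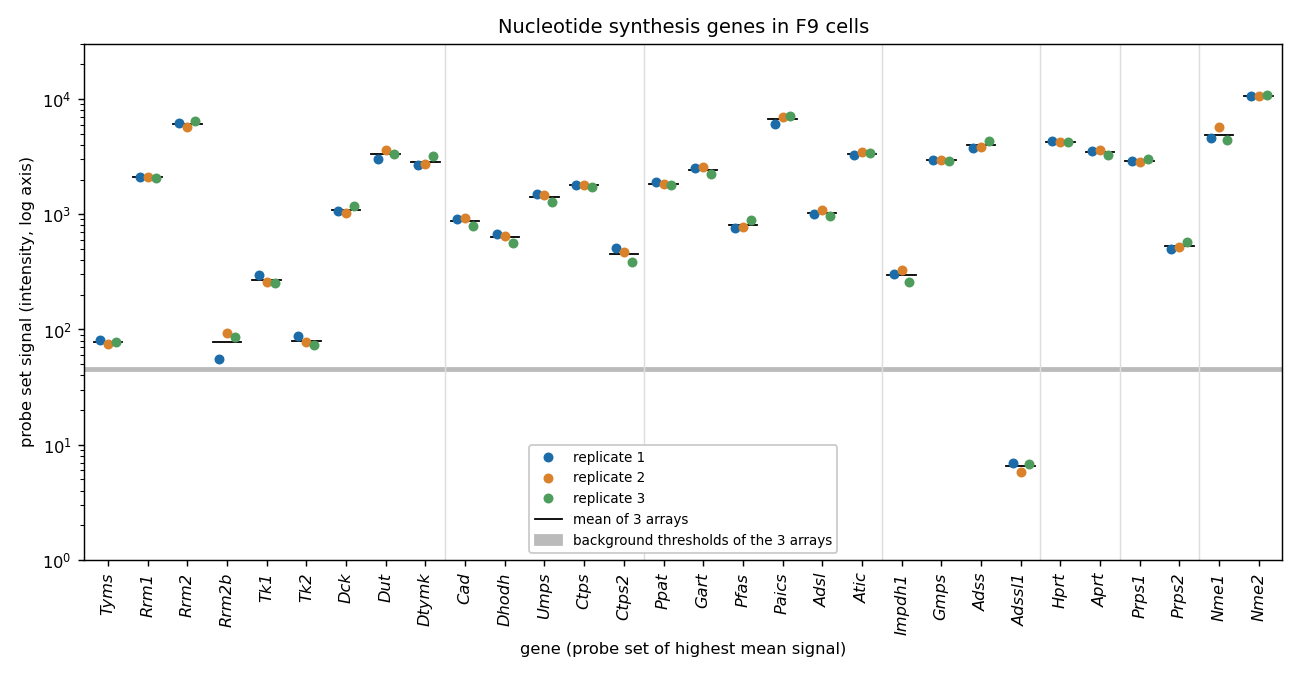
Signal of each gene's probe set of highest mean signal on the 3 arrays (log axis), for the nucleotide genes in pathway order, with the mean as a bar and the background thresholds as a grey band. Tyms, Rrm2b and Tk2 lie just over the band, with means of 77.6, 78.1 and 79.6, and Adssl1 lies under it.

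Several genes were called differently by different probe sets. Of the 29 genes with more than 1, 21 had every probe set above background and 8 had them on both sides: Dld, Mthfd2l, Tyms, Rrm1, Rrm2b, Umps, Ctps2 and Ppat. That is 27.6% of these genes, against 39.9% of all named genes with several. Of the 105 probe sets 90 (85.7%) passed, against 45.2% of all probe sets with 1 gene symbol. Read from the lowest probe set, 39 genes (79.6%) passed, against 31.3% of all named genes.

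**Figure D3:**
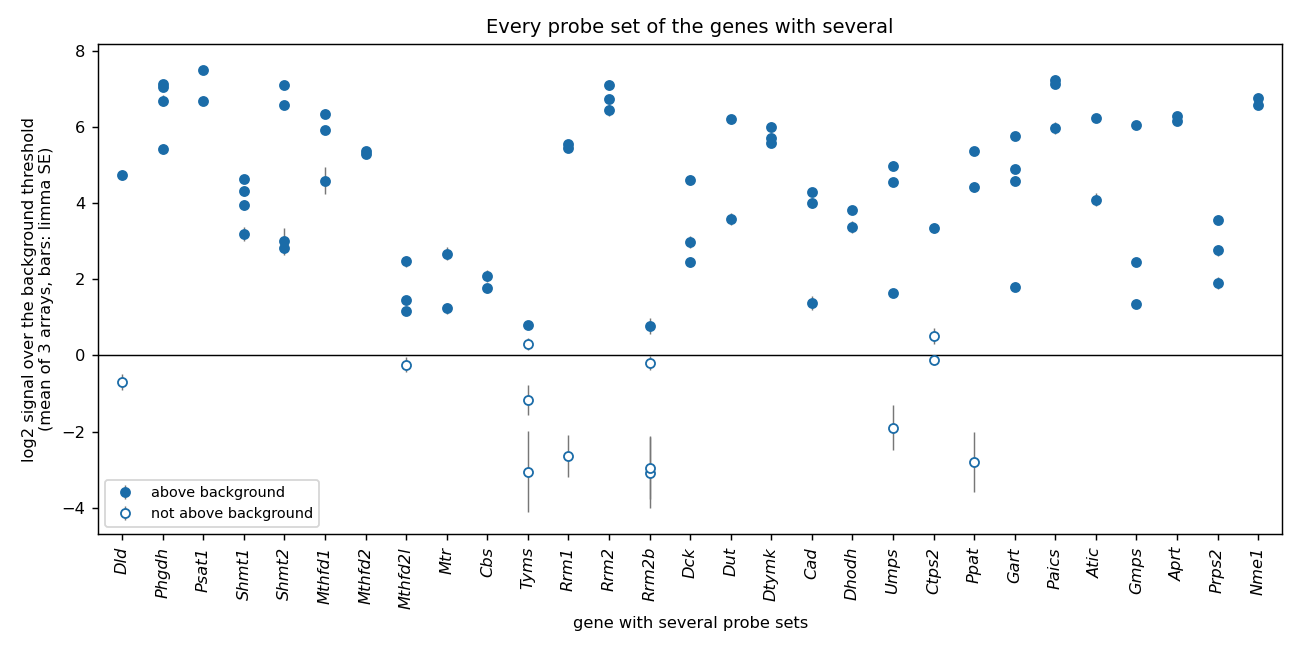
Log2 signal over the background threshold for every probe set of the 29 genes with several, as the mean of 3 arrays with limma's SE. Filled points passed and open points did not; 8 genes, Rrm1 and Ppat among them, show points of both kinds, and the other 21 show filled points alone.

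The arrays agreed closely. In 38 of the 47 genes above background the highest array was less than 1.2-fold over the lowest, and the 9 others were Dld, Mthfd2l, Mtr, Cbs, Rrm2b, Tk2, Ctps2, Impdh1 and Nme1. Among the 47, Rrm2b, Cbs and Mtr had the widest ranges, with SDs of 0.40, 0.32 and 0.25 log2 units. The median SD between arrays was 0.095 log2 units over the 47 genes and 0.12 over all 9236 named genes above background. Among genes with a mean signal of 1000 or more it was 0.065 for 32 of these genes and 0.078 for 2409 named genes, and under 1000 it was 0.13 for 15 and 0.14 for 6827.

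Replicate 3 was the lowest array in 24 of the 47 genes (51.1%) and in 40.5% of named genes above background, and replicate 2 in 9 (19.1%) and 30.4%. The shift was small: replicate 3 lay a median of -0.018 log2 units from the mean of the others in these genes and -0.015 in all named genes. Without replicate 3 the median SD was 0.037 in these genes and 0.077 in all named genes above background, and without replicate 1 it was 0.091 and 0.10. Without replicate 2 the median SD was 0.077 and 0.099. An SD from 2 arrays tends to be lower than one from 3 in each case.

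**Figure D4:**
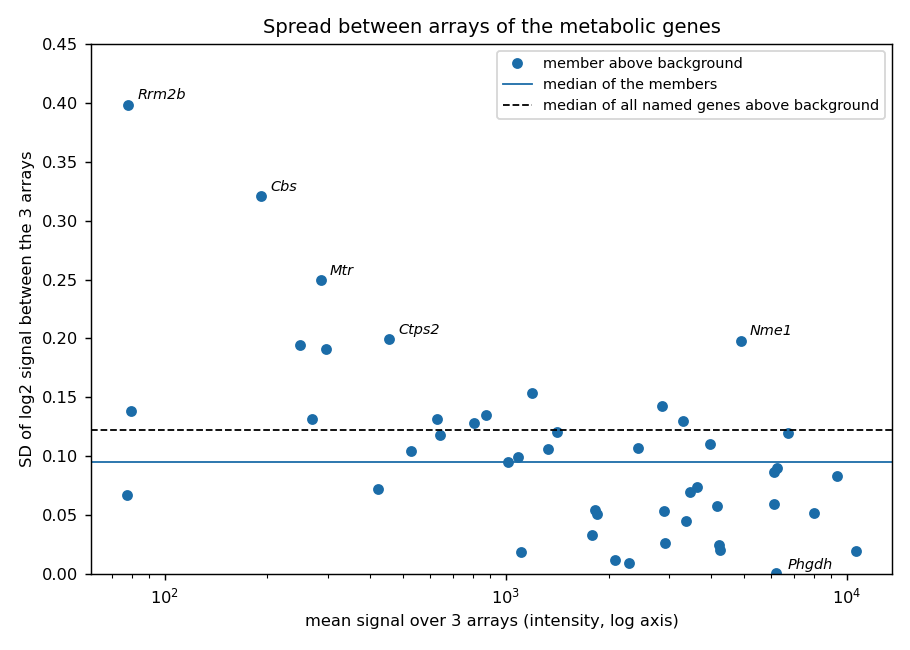
SD of log2 signal between the 3 arrays against mean signal (log axis) for the 47 genes above background, with their median of 0.095 as a solid line and that of all named genes above background, 0.12, as a dashed line. Rrm2b, at 0.40, and Cbs, at 0.32, stand highest, and Phgdh lies at 0.0011.

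Other genes of these pathways were above background less uniformly. Of 84 further genes listed by function, 73 were measured and 48 (65.8%) passed, beside the 51.1% of all named genes. Nucleotide salvage and kinases passed in 17 of 20 genes. The uridine phosphorylase Upp1 (2973 ± 110, SD, n = 3) and the uridine kinases Uck1 (332 ± 23.4) and Uck2 (1420.4 ± 130) were among them. The 3 that did not pass were Upp2 (7.15 ± 9.14), the cytidine deaminase Cda (22.2 ± 15.9) and Cmpk2 (20.3 ± 10.5).

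Folate uptake and handling passed in 8 of 12 genes (66.7%, beside 51.1% of all named genes). The reduced folate carrier Slc19a1 (453 ± 5.26, SD, n = 3), the proton-coupled carrier Slc46a1 (285 ± 35.1) and the folate receptor Folr1 (1066 ± 89.2) passed. The receptor Folr2 (23.2 ± 9.53) did not, nor did Mthfs (10.7 ± 12.8), Ftcd (16.6 ± 13.2), an enzyme of histidine breakdown, or Aldh1l1 (57.1 ± 26.4), the cytosolic formyl-folate dehydrogenase. Aldh1l1 read 87.4 on replicate 1 and 44.3 and 39.6 on the others, so a single array lay clear of the threshold.

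The list of betaine, choline, methylation and polyamine genes passed in 10 of 17 (58.8%), a share near the 51.1% of all named genes. Bhmt and Bhmt2 use betaine to make methionine, Chdh and Dmgdh act before and after them, and Gnmt and Nnmt consume S-adenosylmethionine. Bhmt (14.8 ± 22.5, SD, n = 3), Bhmt2 (7.86 ± 4.92), Gnmt (17.3 ± 10.9), Dmgdh (8.68 ± 3.34), Chdh (7.07 ± 2.15) and Nnmt (14.1 ± 4.11) did not pass. Bhmt read 1.8, 40.8 and 1.9, so its mean rests on replicate 2 and still lies under the threshold.

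Of the genes that use serine and glycine 4 of 7 passed (57.1%), a share near the 51.1% of all named genes. Among them were Sptlc1 (1044 ± 47.7, SD, n = 3) and Sptlc2 (723 ± 61.1), subunits of the enzyme that starts sphingolipid synthesis. Serine racemase Srr (50.5 ± 15.1), Gatm (20.97 ± 12.2) and Glyctk (29.1 ± 16.6) did not.

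Nucleotide breakdown passed in 9 of 17 genes, a share near that of all named genes. Pnp, the purine nucleoside phosphorylase, had a mean of 5664 ± 211 (SD, n = 3) and Ada, adenosine deaminase, of 135 ± 29.3. Samhd1, a dNTP hydrolase, read 100.2, 540.5 and 118, with replicate 2 far over the others. This probe set, of the _x_at kind, passed narrowly (limma adjusted p = 0.0486). Over the same 11 alternatives, some of which read another probe set, limma's adjusted p ran from 0.000398 to 0.124, and 4 lost the call. Of the 5 Samhd1 probe sets 4 passed, and the one chosen by suffix lay 2.38 log2 units over the threshold. Not above background were Gda (31.9 ± 15.7), Uox (50.4 ± 9.09), Ampd1 (16.01 ± 10.9), Ampd3 (48.96 ± 9.15), Dpyd (10.3 ± 6.59) and Dpys (38.2 ± 11.3), which degrade guanine, urate, AMP and pyrimidines.

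**Figure D5:**
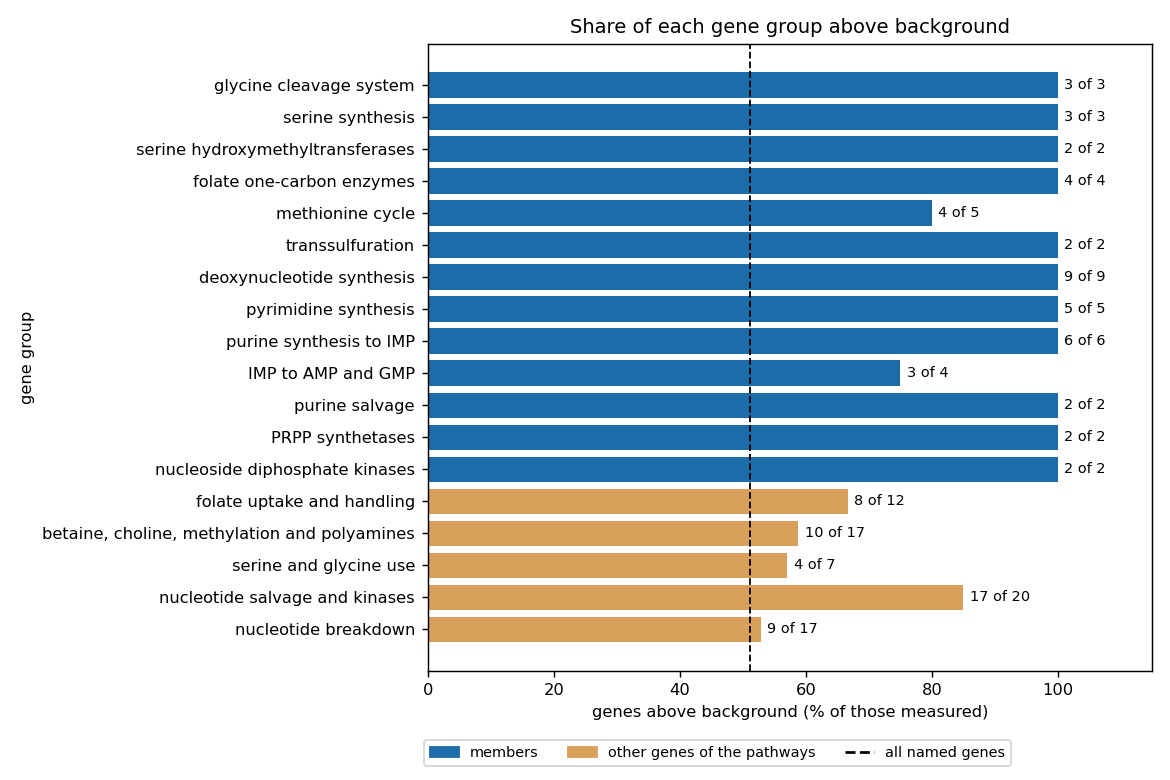
Percent of the measured genes above background in each group, with the counts beside the bars, for the genes described here (blue) and the other genes of the pathways (tan). The dashed line marks the 51.1% of all named genes; the blue groups reach 100% except the methionine cycle at 80.0% and the AMP and GMP branch at 75.0%, and nucleotide breakdown, at 52.9%, lies nearest the line.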

How the data were processed

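Signals were measured on 3 arrays of undifferentiated F9 cells, with 45101 probe sets each. The authors deposited 1 signal intensity for each probe set on each array, on a linear scale. GCOS 1.4 was used, per the submitters' processing notes, while how signals were summarised is not given in the sources used here. Each array had been scaled: the mean after trimming 2% at each end was 250.0 on all 3 arrays, which hides any change in total RNA. For the main results, no further normalization was applied to the deposited values. Symbols came from the platform annotation: 34945 probe sets had 1 symbol, 932 several and 9160 none, beside 64 controls. Gene identifiers of 34741 were found in the GRCm38.p6 table, which changed 0 symbols. Promoter windows came from RefSeq by symbol.

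The threshold, set for each array, was the 95th percentile over 126 probe sets of 112 background genes. Log2 signal minus log2 threshold was fitted with limma 3.58.1 in R 4.3.3 (intercept, eBayes, one-sided); p-values were adjusted over every probe set by Benjamini and Hochberg's method, and the procedure was tested on simulated data. A gene took its probe set of highest mean. The number of arrays limits the precision. Counts of gene lists are descriptions with no test of their own.

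The genes and lists were chosen with earlier results of these data known. Every measured gene of the set is named. Values per array are given for the serine, glycine and folate genes, for genes not above background or with probe sets on both sides, for the first and last gene of each other group and for the 3 widest ranges. Of the other pathway genes, the first 4 of each list and up to 6 on its minority side are named. Alternatives changed the threshold, probe sets, scaling, pseudocount, filter and replicates.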

Additional observations from a re-analysis of the deposited data

How the results depend on the processing

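The number of genes above background stayed within 1.5 times under all 13 alternatives for the nucleotide, folate, serine and methionine genes (39 to 47, main value 47) and for the serine, glycine and folate genes among them (10 to 12, main value 12). Of the 49 genes, 40 kept their direction and call in every alternative that gave them a value; the 9 others were Tk2 and the 8 with probe sets on both sides of the call. Phgdh had no value without _s_at and _x_at probe sets, and Mat1a and Adssl1 had none after the filter on low values. This filter dropped probe sets under the threshold on every array before the test, so its 47 of 47 is no separate check. The main counts, 47 of 49 and 12 of 12, lie near or at their maximum, so a band of 1.5 times is wide. With the lowest probe set of each gene, 31 of the 73 other pathway genes passed in place of 48, and log2 values over the threshold turned negative for Dld (-0.70), Mthfd2l (-0.24), Tyms (-3.05), Rrm1 (-2.64), Rrm2b (-2.94), Umps (-1.90), Ctps2 (-0.11), Ppat (-2.81), Slc19a1 (-3.18), Aldh1l1 (-3.12), Srr (-2.49), Sptlc1 (-0.55), Sptlc2 (-1.86), Uck2 (-0.96) and Samhd1 (-3.08); this follows from the choice of probe set. Genes near the threshold changed side with its height: Dpys lay at 0.048 at the 90th percentile, and Aldh1l1, Srr, Ampd3 and Uox at -0.12, -0.26, -0.27 and -0.22 at the 99th. On their lowest array the last 4 lay at -0.13, -0.43, -0.11 and -0.054. Aldh1l1 also lay at -3.12 with the probe set chosen by suffix and, with 1 replicate left out, between -0.092 and 0.46. Leaving out 1 replicate gave 45 to 46 genes above background. The median SD between arrays was then 0.091, 0.077 and 0.037 log2 units without replicates 1, 2 and 3, against 0.095 with all 3. An SD from 2 arrays tends to be lower by construction in each case. Why the value without replicate 3 was the lowest was not tested. No paired analysis was possible because all 3 samples form 1 group. Values near the threshold of about 45 are limited by signal over background.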
